A study of Mus musculus with 24 samples.

Results

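Nuclear receptors of the mouse liver were followed in an array study of a high-fat diet and of an added plant powder. The group was chosen by name and holds 36 genes. Every probe set whose platform annotation lists exactly 1 gene symbol, that symbol being 1 of the 36, was taken as a member. This gave 99 of the 45037 probe sets that are not array controls, and 35 of the 36 genes; no probe set was matched to Nr1h2, which is not analysed here. Of these 35 genes, 12 had 1 probe set, 23 had 2 or more, and Rora had the most with 9. Each gene was read first from its reference probe set, the one with the highest mean over all columns.

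All animals were male C57BL6J mice with 6 per group, and RNA came from liver, 1 array per mouse. They started on a low-fat diet. The groups were then fed for 4 weeks either the low-fat diet (LF), a diet with 45% fat (HF), or the same 45% fat diet with 5% powder of the propagules of Japanese yam, its aerial bulbils (HF+P). All 18 mice had been without food for 16 h at dissection, so every group is a fasted group, and the age of the mice is not given in the sources used here. HF was set against LF for the effect of fat loading, and HF+P against HF for the effect of eating propagules. The same 6 HF arrays serve both comparisons, since their values were computed once with LF and again with HF+P; the pair of comparisons therefore shares those mice, and their values are given side by side only. Nothing in the labels says how mice were housed, so the tests measure the spread between these mice.

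Nuclear receptors are transcription factors, most of which are switched by small lipid-soluble ligands such as thyroid hormone, retinoic acid, steroids, oxysterols, bile acids and fatty acids. Many bind DNA as a heterodimer with a retinoid X receptor, exchange corepressors for coactivators when the ligand arrives, and so set the transcription of metabolic genes. In liver they are known for control of fatty acid oxidation, bile acid and sterol balance, gluconeogenesis and hepatocyte identity. Their activity depends on ligand and partner proteins, which an RNA level does not show.

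The deposited values lie between 5.36 and 15.02 and were read as log2 values, although the sources used here give no log base, summarisation or normalisation. Column medians were 6.90 in each of the 12 columns of LF with HF and 6.85 in each of the 12 columns of HF with HF+P. Differences between arrays are extremely small: over all probe sets the median SD across 12 columns was 4.17 millionths of a log2 unit for LF with HF and 4.26 for HF with HF+P. They are therefore not fold changes. Each mouse is given below as its deviation from the mean of the control group (LF in the first comparison, HF in the other), in millionths of a log2 unit. The size of a difference is the standardized difference, treated minus control, in pooled within-group SDs with Hedges' small-sample correction, followed by its 95% interval. The column median was higher in HF than in LF by 64.5 millionths, more than the difference of 94.7% of all probe sets and of 91 of the 99 member probe sets. With the 64 control probe sets kept, a choice looked at after seeing the data, the shift was 33.6 millionths. The column median of HF+P against HF moved by -4.09 millionths, or by -1.27 with the controls kept. Directions can thus turn with the scaling. Column-median centring makes any positive difference below 64.5 millionths negative in HF against LF. In HF+P against HF it makes any negative difference above -4.09 positive. Across 12 columns the median probe set moved over 3 ranks in LF with HF and 2 in HF with HF+P, and so did the median member. Values after quantile normalisation are therefore steps between nearby ranks. Among the 35 reference probe sets, the sign turned in 13 under quantile normalisation and in 16 under column-median centring in HF against LF, and in 11 and 8 in HF+P against HF. The 9 measured hepatocyte markers, among them Alb, Ttr and Apoa1, all lay above the column median, with a median level of 14.03.

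No nuclear receptor passed the test in HF against LF. Of the 99 member probe sets 0 rose and 0 fell (limma, Benjamini-Hochberg adjusted p under 0.05 over all 45037 probe sets), beside 302 probe sets called in all, a background of 0.671%. At a threshold of 0.1, 2 of the 99 passed, both of Thra, against 1.91% of all probe sets. At an unadjusted p under 0.05, 8 of the 99 were reached by limma and 8 by the exact permutation test, against 12.9% and 12.8% of all probe sets. Of the 8 by limma, 3 were higher in HF (5.69% of all) and 5 lower (7.25% of all). The groups did not overlap in 1 of the 99, against 1.57% of all. The median size of the standardized difference was 0.46 in the members and 0.49 in all probe sets, with 48 member probe sets higher in HF and 51 lower, where 50.8% of all were higher. A difference beyond 1 pooled SD was found in 10 of the 99, against 18.7% of all. In 96 of the 99 the 95% interval lay within 3 pooled SDs of 0.

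In HF+P against HF no nuclear receptor passed the test either. Of the 99 member probe sets 0 rose and 0 fell, and only 1 of 45037 probe sets was called (limma, 0.00222%). At an unadjusted p under 0.05, 6 of the 99 were reached by limma and 5 by the exact permutation test, against 6.94% and 6.89% of all probe sets. Of the 6 by limma, 4 were higher in HF+P (3.74% of all) and 2 lower (3.20% of all). In 0 of the 99 were the groups free of overlap, against 0.355% of all. The median size of the difference was 0.43 in the members and 0.42 in all probe sets, 45 member probe sets were higher in HF+P and 54 lower, where 49.3% of all were higher, and 8 of the 99 differed by over 1 pooled SD, against 11.7% of all. Of the members, 98 of 99 intervals lay within 3 pooled SDs of 0. With 6 arrays a group these intervals are wide, and the smallest detectable difference was not computed.

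**Figure D1:**
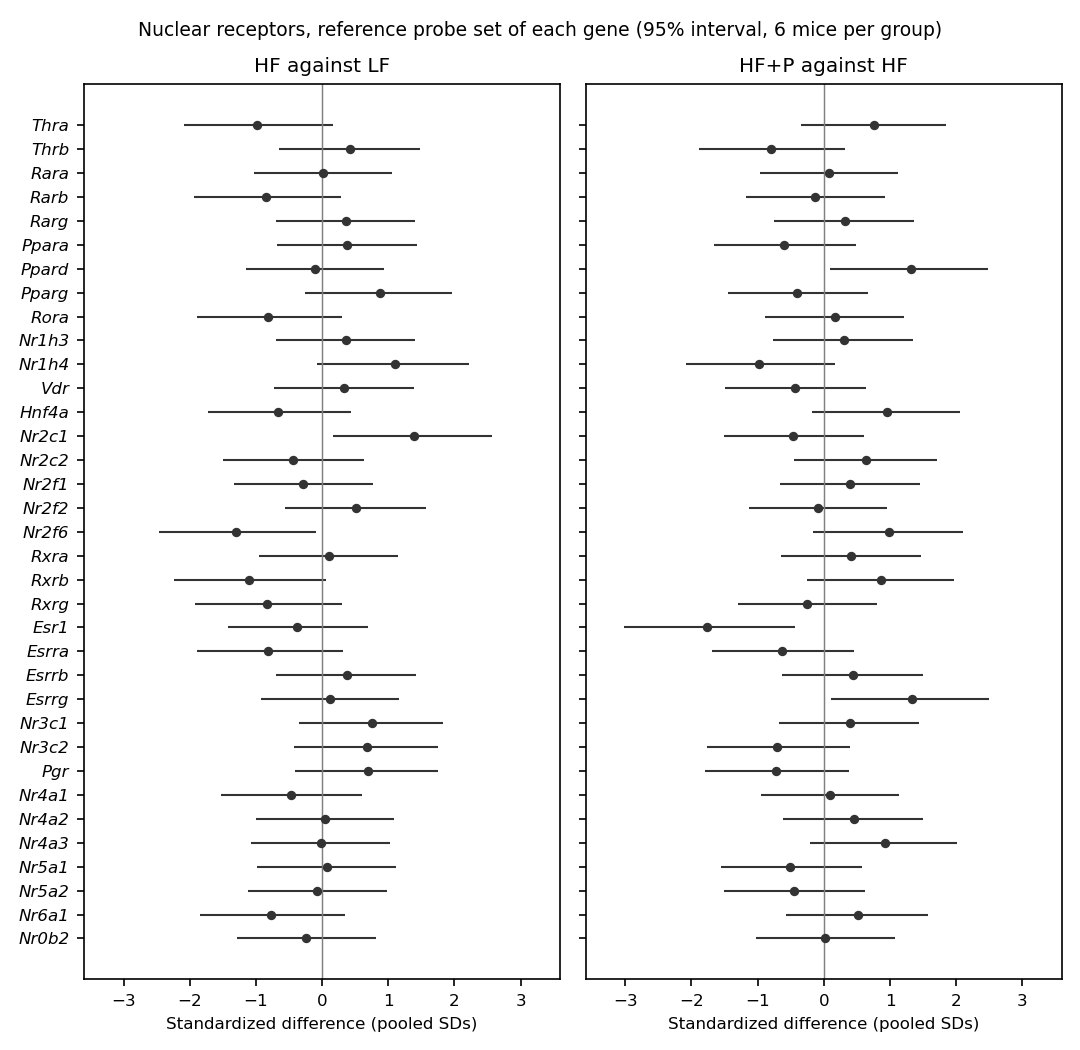
Standardized difference of the reference probe set of each of the 35 nuclear receptors in HF against LF (left) and HF+P against HF (right), in pooled SDs on the x axis; points are estimates from 6 mice per group and bars are 95% intervals. Estimates run from -1.30 (Nr2f6) to 1.39 (Nr2c1) on the left and from -1.76 (Esr1) to 1.33 (Esrrg) on the right, and none passed the adjusted threshold.

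Among the receptors of hormones and vitamins, Thra gave the smallest p of all members in HF against LF, and all 3 of its probe sets were lower in HF. Thra encodes the alpha receptor of thyroid hormone. On probe set 1454675_at the LF mice lay at -37.3, -5.88 and 44.2 (lowest, median, highest) and the HF mice at -94.7, -81.7 and -46.6. Every HF mouse was below every LF mouse. The standardized difference was -2.30 (-3.72 to -0.831; limma, adjusted p = 0.0749; exact permutation p = 0.00216, the smallest that 6 against 6 mice can give). On probe set 1426997_at LF lay at -5.02, 0.65 and 3.34 and HF at -18.3, -8.83 and -4.63, a difference of -2.17 (-3.54 to -0.734; adjusted p = 0.0932). Here only the ranges' ends met, with 1 LF mouse inside the HF range. The reference probe set 1443952_at differed by -0.98 (-2.09 to 0.165; adjusted p = 0.475), its groups overlapping widely. All 3 probe sets stayed lower in HF after column-median centring (-5.10, -3.24 and -2.81) and quantile normalisation (-1.91, -0.52 and -0.08). These scalings left most of all probe sets lower in HF, with medians of -2.72 and -0.84 and only 1291 and 5927 higher. A kept lower sign therefore says little.

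Whether Thra is called depends on the setting. Probe set 1454675_at passed when only the brighter probe sets were tested (adjusted p = 0.0461), after quantile normalisation (adjusted p = 0.0272) and with the mouse number as a block (adjusted p = 0.0407), and the mean of the 3 probe sets passed too (-2.63; adjusted p = 0.0360). With any 1 mouse left out the adjusted p of 1454675_at ran from 0.0662 to 0.157. Quantile normalisation called 7086 of 40595 probe sets lower in HF. In HF+P against HF the 3 Thra probe sets were higher in HF+P, by 0.90 (-0.236 to 1.99) for 1454675_at, 0.99 (-0.159 to 2.10) for 1426997_at and 0.77 (-0.347 to 1.84) for the reference, with overlapping groups and adjusted p of at least 0.757; after quantile normalisation 1454675_at was at -0.03. Since these are pieces of whole liver, fewer cells of a type and less RNA per cell cannot be told apart.

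**Figure D2:**
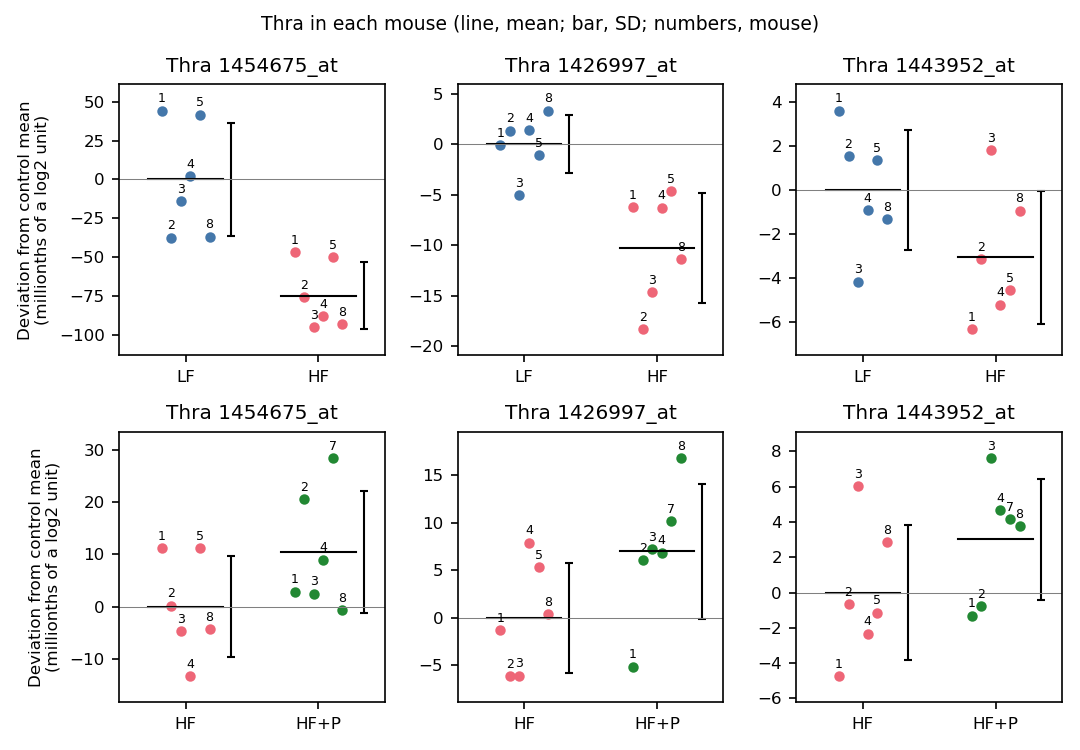
Deviation of each mouse from the control mean, in millionths of a log2 unit, for the 3 probe sets of Thra in LF and HF (top) and in HF and HF+P (bottom); numbers mark mice, lines are means and bars SDs, and the y scales differ between panels. On 1454675_at the 6 HF mice lie between -94.7 and -46.6, below the lowest LF mouse at -37.3, whereas HF and HF+P mice overlap on all 3 probe sets.

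Thrb, the beta receptor that carries most thyroid hormone action in hepatocytes, had 1 probe set and differed by 0.42 (-0.646 to 1.48) in HF against LF, turning to -0.67 after quantile normalisation and -2.01 after column-median centring. In HF+P against HF the HF mice lay at -16.3, 0.61 and 19.2 and the HF+P mice at -19.7, -9.14 and 1.29. Most HF+P mice were in the lower part of the HF range, and the difference was -0.80 (-1.88 to 0.318; adjusted p = 0.805), turning to 0.06 after quantile normalisation. The retinoic acid receptors Rara, Rarb and Rarg bind retinoic acid and pair with retinoid X receptors. For Rarb the LF mice lay at -15.2, 0.90 and 11.8 and the HF mice at -25.6, -16.6 and 11.7. Rarb overlapped between the groups, although most of its HF values were below every LF value. Its difference was -0.84 (-1.93 to 0.281; adjusted p = 0.545), and it was called lower after quantile normalisation (-2.41; adjusted p = 0.0156). Rara stood at 0.01 and Rarg at 0.36 in HF against LF, which column-median centring turned to -2.72 and -2.74 and quantile normalisation, for Rara, to -1.01. Rara, Rarb and Rarg in HF+P against HF stood at 0.08, -0.13 and 0.31, of which Rarb turned to 0.14 after column-median centring. Vdr, the vitamin D receptor, stood at 0.34 in HF against LF on its reference probe set, turning to -2.55 after column-median centring. Its value in HF+P against HF was -0.44, turning to 0.18 after that centring and to 0.79 after quantile normalisation.

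The peroxisome proliferator-activated receptors sense fatty acids, and Ppara drives the fasting programme of fatty acid oxidation in hepatocytes. All 3 Ppara probe sets were higher in HF than in LF and had lower means with propagules, without passing the test. On its reference probe set 1449051_at the LF mice lay at -280, 44.9 and 114 and the HF mice at -506, 149 and 476. The HF group held both the lowest and the highest mouse. The difference was 0.38 (-0.688 to 1.43; adjusted p = 0.830), and the other probe sets gave 0.99 and 0.79, the last turning to -0.43 after column-median centring. With propagules, the 3 Ppara probe sets gave -0.60, -0.86 and -0.49, the one at -0.86 turning to 0.64 after quantile normalisation. HF mouse 8 (-545) and HF+P mouse 8 (-537) were the lowest of their groups on the reference probe set in that comparison.

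Pparg, the adipocyte regulator that also promotes fat storage in liver, had 1 probe set. LF mice lay at -216, -0.15 and 282 and HF mice at -128, 193 and 505. The upper part of the HF group reached past all LF mice, yet the ranges overlapped. The difference was 0.87 (-0.261 to 1.96; adjusted p = 0.531), and it turned to -0.09 after quantile normalisation. In HF+P against HF it was -0.41 (-1.45 to 0.663). Ppard, the widely expressed delta receptor, gave -0.11 in HF against LF. Once propagules were added, its reference probe set had HF mice at -6.41, 1.36 and 2.30 and HF+P mice at -3.87, 9.05 and 14.5. Most HF+P mice were above the HF group, by 1.31 (0.0986 to 2.48; adjusted p = 0.672; exact permutation p = 0.0346), but the difference turned to -1.07 after quantile normalisation, and its other probe set stood at -0.86.

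The retinoid X receptors are the shared partners of the thyroid, retinoid, PPAR, liver X and farnesoid X receptors. Rxra, the main form in liver, stood at 0.10 in HF against LF on its reference probe set, turning to -2.58 after column-median centring, and at 0.42 in HF+P against HF. Rxrb in LF mice lay at -0.74, -0.11 and 1.22 and in HF mice at -1.34, -1.003 and 0.24, a difference of -1.11 (-2.24 to 0.0597; adjusted p = 0.544). Most HF mice were below most LF mice, although within a span of under 3 millionths. For HF+P against HF, Rxrb was at 0.87 (-0.259 to 1.96; adjusted p = 0.785), from HF mice at -6.28, -0.33 and 5.54 to HF+P mice at -8.81, 6.73 and 19.5, again overlapping. Rxrg, a form known mainly from muscle and brain, gave -0.83 (-1.92 to 0.293) and -0.25 (-1.29 to 0.808), the latter turning to 0.18 after quantile normalisation and 0.55 after column-median centring, with LF mice at -3.30, 0.39 and 1.92 and HF mice at -2.23, -1.16 and -0.45.

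Nr0b2 encodes SHP, a receptor without a DNA-binding domain that represses other nuclear receptors and bile acid synthesis. It is itself a textbook target of the farnesoid X receptor (Nr1h4) and of LRH-1 (Nr5a2), both measured here. The 100 bases just before its annotated start are shown because Nr0b2 was the most variable member. They come from RefSeq, GRCm38.p6, chr4:133553276-133553375, plus strand, with capitals marking the core TCAAGG of the site bound by NR5A receptors.
Nr0b2 promoter: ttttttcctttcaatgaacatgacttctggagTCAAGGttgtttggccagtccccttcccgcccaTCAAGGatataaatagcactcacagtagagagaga
The core starts at -68 and at -35 from the start. Searched on both strands from 250 bases before to 50 after each start, TCAAGG was found in 14.4% of 32851 RefSeq promoters and in 8 of the 53 promoters listed for members. The nuclear receptor motif AGGTCA, which overlaps TCAAGG within the longer TCAAGGTCA, was found in 16.3% of all promoters and in 10 of the 53. It was not found in that of Nr0b2. The direct repeat of AGGTCA and its inverted repeat, each with a spacer of 1 base, were found in 13 and 3 promoters in all and in 0 of the 53. A match describes letters only, and no binding was measured.

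Nr0b2 varied between mice of every group far more than any other member. Its level in LF mice was 8.487, 8.506 and 8.518 (lowest, median, highest) and in HF mice 8.484, 8.503 and 8.512. The ranges coincided almost fully. Its SD over the 12 arrays, 0.00988, ranked 120 from the widest among 45037 probe sets and was 39.1 times that of the next most variable member probe set. The difference between HF and LF was -0.25 (-1.29 to 0.810; adjusted p = 0.90). In the other value set the level was 8.397, 8.422 and 8.435 in HF and 8.397, 8.416 and 8.445 in HF+P, an SD of 0.0149 that ranked 57, with a difference of 0.02 (-1.02 to 1.07). HF mouse 8 was the lowest and HF mouse 5 the highest HF mouse in both computations of the HF arrays, and HF+P mouse 8 the lowest and mouse 2 the highest of HF+P. The scatter lay within the groups, and neither mean moved by more than a small part of it.

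**Figure D3:**
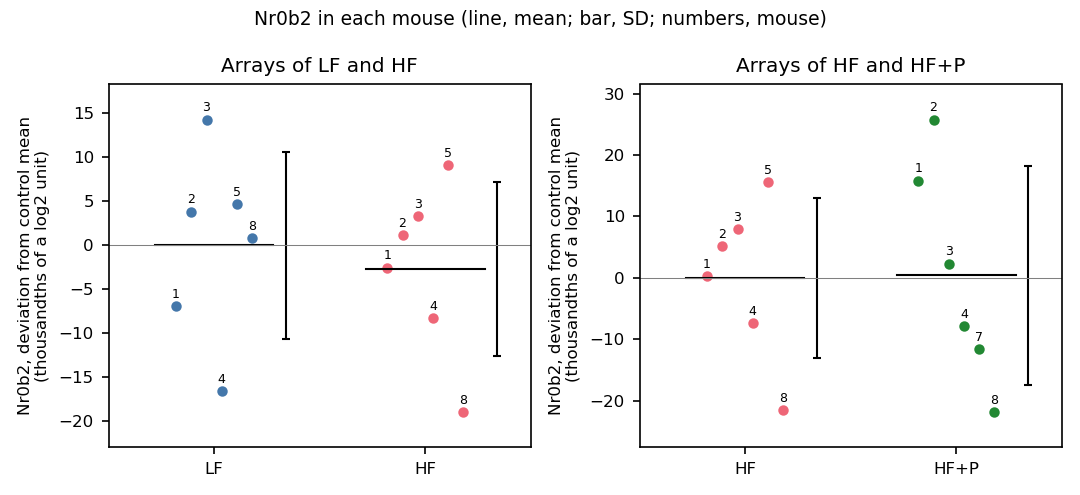
Deviation of Nr0b2 in each mouse from the control mean, in thousandths of a log2 unit, in LF and HF (left) and in HF and HF+P (right); numbers mark mice, lines are means and bars SDs. The groups overlap almost fully, and HF mouse 8 is the lowest HF mouse on both sides.

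Nr1h4, the bile acid receptor FXR, had 1 probe set. LF mice lay at -3.82, 0.44 and 3.15 and HF mice at -1.76, 5.18 and 17.1. The HF group reached upward past LF, and the difference was 1.09 (-0.0747 to 2.22; adjusted p = 0.408), turning to -2.30 after column-median centring. With propagules, the HF mice lay at -13.1, -1.10 and 14.1 and the HF+P mice at -29.0, -15.1 and 5.50. The shift was downward with overlap, -0.98 (-2.09 to 0.166; adjusted p = 0.757), and turned to 0.29 after quantile normalisation. Nr1h3, the oxysterol receptor LXR alpha, gave 0.36 (-0.705 to 1.41) and 0.30 (-0.762 to 1.34), of which the first turned to -0.50 after quantile normalisation and -2.56 after column-median centring.

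Hnf4a, the factor that maintains hepatocyte identity, had 4 probe sets, all lower in HF than in LF and all higher in HF+P than in HF, with none past the test. The reference probe set gave -0.66 (-1.73 to 0.436) in HF against LF, from LF mice at -13.0, -0.06 and 10.6 to HF mice at -15.1, -6.58 and 3.6. The remaining 3 gave -0.67, -0.93 and -0.38, of which the probe set at -0.93, 1427000_at, turned to 0.53 after quantile normalisation. Between HF and HF+P, probe set 1427000_at had HF mice at -110, -7.90 and 167 and HF+P mice at 68.4, 110 and 208. All 6 HF+P mice exceeded 5 of the 6 HF mice. Its difference was 1.39 (0.160 to 2.57; adjusted p = 0.649; exact permutation p = 0.0281). The reference probe set gave 0.96 (-0.184 to 2.06; adjusted p = 0.762), from HF mice at -15.7, 0.76 and 14.7 to HF+P mice at -1.49, 10.8 and 34.1. The 3 Hnf4a probe sets that change rank between arrays stayed higher in HF+P under quantile normalisation, and all 4 did so under column-median centring. That centring left 38819 of all 45037 probe sets higher in HF+P.

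Nr2c1, the testicular receptor TR2 that represses from direct repeats, had the highest reference difference in HF against LF. LF mice lay at -1.57, -0.28 and 2.7 and HF mice at 0.46, 2.33 and 5.67. The HF group was shifted upward with overlap, by 1.39 (0.160 to 2.57; adjusted p = 0.298; exact permutation p = 0.0281). This direction turned to -0.45 after quantile normalisation and to -2.77 after column-median centring, and 2 of its 5 probe sets were lower in HF. Its reference stood at -0.46 in HF+P against HF, turning to 0.34 after column-median centring. Nr2f6, the COUP-related repressor EAR2, had the lowest reference difference. LF mice lay at -3.03, -0.26 and 3.65 and HF mice at -6.66, -3.64 and -0.024. Most HF mice were in or below the lower LF range, by -1.30 (-2.47 to -0.0925; adjusted p = 0.324; exact permutation p = 0.0325), and the other Nr2f6 probe set gave -0.58. Both stayed lower after quantile normalisation and column-median centring, which left most of all probe sets lower in HF. Once propagules were added, both Nr2f6 probe sets were higher, by 0.99 (-0.160 to 2.10; adjusted p = 0.757) for the reference, with HF mice at -6.02, -0.53 and 6.78 and HF+P mice at -10.0, 9.73 and 20.7.

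The COUP transcription factors Nr2f1 and Nr2f2, the latter known from veins and mesenchyme, stood at -0.29 and 0.52 in HF against LF on their reference probe sets and at 0.40 and -0.09 in HF+P against HF. Quantile normalisation turned Nr2f1 to 0.29 in HF against LF and Nr2f2 to 1.16 in HF+P against HF, and column-median centring turned Nr2f2 to -2.34 and 0.35. Nr2c2, the receptor TR4, stood at -0.44 and 0.64. Over the 24 probe sets of these 6 genes, 10 were higher and 14 lower in HF, and 13 were higher and 11 lower in HF+P.

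Rora, a receptor of clock and lipid genes that binds DNA as a monomer, had 9 probe sets, of which 6 were lower in HF and 6 lower in HF+P. On its reference probe set LF mice lay at -40.4, -16.3 and 67.8 and HF mice at -152, -29.8 and 4.67, a difference of -0.81 (-1.90 to 0.307; adjusted p = 0.562). HF mouse 3 stood far below the rest of its group there. The mean of the 9 probe sets gave 0.11. For HF+P against HF, probe set 1458145_at gave -1.23 (-2.37 to -0.0303; adjusted p = 0.706; exact permutation p = 0.0476), with HF mice at -5.50, 1.03 and 3.45 and HF+P mice at -7.71, -4.37 and -1.36, turning to 0.23 after quantile normalisation, whereas the reference gave 0.16. Nr6a1, the germ cell nuclear factor, gave -0.77 (-1.85 to 0.341; adjusted p = 0.585) and 0.52, with LF mice at -32.1, 5.55 and 28.7 and HF mice at -64.1, -41.0 and 47.7. Nr5a2, the liver receptor LRH-1, stood at -0.07 in HF against LF on its reference probe set, turning to 0.16 after quantile normalisation. Its 4 probe sets gave -0.46 to -0.13 in HF+P against HF, where the reference turned to 0.84 after quantile normalisation. Nr5a1, the steroidogenic factor of adrenal and gonad, stood at 0.07 and -0.50, which column-median centring turned to -2.71 and 0.46 and quantile normalisation, for the first, to -0.68.

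Esr1, the estrogen receptor alpha, gave the smallest p of all members in HF+P against HF, with its 3 probe sets lower in HF+P. On the reference probe set 1460591_at HF mice lay at -193, 38.2 and 146 and HF+P mice at -366, -199 and -133. Of the 6 HF+P mice 4 were below every HF mouse, and the other two lay between HF mouse 2 and HF mouse 8. The difference was -1.76 (-3.02 to -0.439; limma, adjusted p = 0.542; exact permutation p = 0.00866). The other probe sets gave -1.10 (-2.23 to 0.0689) and -0.70 (-1.78 to 0.401). After quantile normalisation the 3 values were -0.23, -0.72 and 0.21. With any 1 mouse left out, the adjusted p of the reference ran from 0.460 to 0.777. In HF against LF the 3 probe sets gave -0.38, -0.36 and -0.03.

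**Figure D4:**
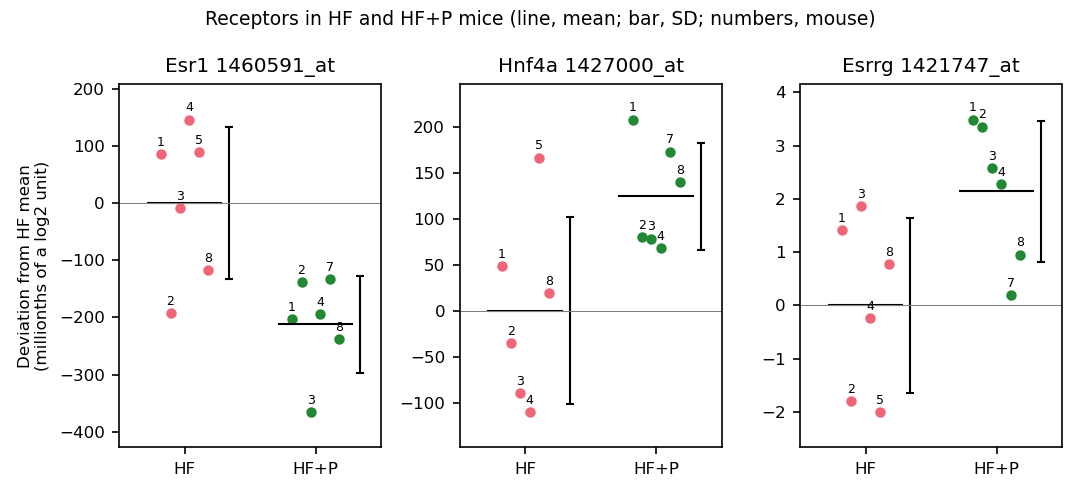
Deviation of each HF and HF+P mouse from the HF mean, in millionths of a log2 unit, for probe sets of Esr1, Hnf4a and Esrrg; numbers mark mice, lines are means and bars SDs, and the y scales differ. HF+P mice lie lower for Esr1 and mostly higher for Hnf4a and Esrrg, each panel shows overlap with HF mice, and no panel passed the adjusted test.

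Nr3c1, the glucocorticoid receptor, had 6 probe sets, all higher in HF than in LF, although 4 turned lower under quantile normalisation and 4 under column-median centring. Its reference probe set gave 0.76 (-0.355 to 1.83; adjusted p = 0.596), from LF mice at -66.5, 5.68 and 38.8 to HF mice at -8.74, 33.8 and 65.3, and it turned to -0.63 after column-median centring. On probe set 1453860_s_at LF mice lay at -62.7, 5.49 and 41.7 and HF mice at 0.89, 101 and 190. Most HF mice were above all LF mice, by 1.51 (0.255 to 2.72; adjusted p = 0.230; exact permutation p = 0.0195), and this probe set stayed higher under quantile normalisation (1.21) and column-median centring (0.53). With propagules, 2 of the 6 were higher and 4 lower, with 0.40 for the reference. Nr3c2, the mineralocorticoid receptor, gave 0.67 in HF against LF, turning to -0.096 after quantile normalisation and -2.02 after column-median centring. Between HF and HF+P, it gave -0.70 (-1.77 to 0.403; adjusted p = 0.828), with HF mice at -27.7, -5.05 and 50.8 and HF+P mice at -55.9, -22.1 and 24.8. Pgr, the progesterone receptor, gave 0.69 in HF against LF, which turned to -2.53 after column-median centring and to -2.68 after quantile normalisation, where it was called lower (adjusted p = 0.00787). Once propagules were added, it gave -0.72 (-1.79 to 0.387), with HF mice at -4.30, -1.59 and 8.10 and HF+P mice at -9.68, -2.38 and 0.44, while its other probe sets stood at 0.77 and 0.07. This Pgr value turned to 0.53 after quantile normalisation, 0.10 after column-median centring and 0.43 for the mean of its probe sets.

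The estrogen-related receptors bind no estrogen and, with the coactivator PGC-1, drive mitochondrial genes. Esrra had 2 probe sets lower in HF than in LF, by -0.81 (-1.89 to 0.309; adjusted p = 0.564) for the reference and -0.90 for the other, which turned to 0.74 after quantile normalisation. Reference values were -7.76, 1.15 and 7.67 in LF and -15.1, -8.14 and 6.95 in HF. Esrra overlapped between the groups, although most of its HF values were below every LF value. Its value in HF+P against HF was -0.63, turning to 0.62 after quantile normalisation and 0.31 after column-median centring. Esrrg split between its probe sets in HF against LF. Probe set 1455267_at had LF mice at -17.8, -2.7 and 21.1 and HF mice at -24.2, -19.1 and -11.8, a difference of -1.68 (-2.92 to -0.377; adjusted p = 0.183; exact permutation p = 0.00649) that turned to 0.33 after quantile normalisation. The reference gave 0.13, turning to -0.18 after quantile normalisation and -2.77 after column-median centring. For HF+P against HF, all 3 Esrrg probe sets were higher, with 1.33 (0.110 to 2.49; adjusted p = 0.699; exact permutation p = 0.0368) for the reference, from HF mice at -2.01, 0.27 and 1.86 to HF+P mice at 0.19, 2.42 and 3.49. It turned to -0.37 after quantile normalisation. Esrrb, known from stem cells, stood at 0.37 and 0.45, of which the first turned to -1.37 after quantile normalisation and -2.74 after column-median centring.

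The NR4A receptors are immediate early genes that act without a known ligand, induced in liver by glucagon and fasting. Nr4a1 stood at -0.48 in HF against LF and at 0.10 in HF+P against HF. Nr4a2 had 6 probe sets, of which 5 were lower in HF, and the lowest, 1455034_at, had LF mice at -14.7, 0.15 and 14.9 and HF mice at -27.1, -20.5 and -8.89. Most HF mice lay below all LF mice, by -1.81 (-3.09 to -0.478; adjusted p = 0.153; exact permutation p = 0.0108), and this probe set was called lower after quantile normalisation (-2.66; adjusted p = 0.00804). That normalisation called 7086 of 40595 probe sets lower. Probe set 1455034_at is also dim, at 5.89 in LF beside a column median of 6.90. The Nr4a2 reference gave 0.04, turning to -0.81 after quantile normalisation and -2.83 after column-median centring, and 0.45 in HF+P against HF, turning to -0.23 after quantile normalisation. Nr4a3 stood at -0.02 in HF against LF. With propagules, it gave 0.92 (-0.216 to 2.02; adjusted p = 0.811), from HF mice at -1.02, 0.10 and 1.12 to HF+P mice at -0.34, 0.70 and 2.60. The mean of its 3 probe sets gave -0.82 instead.

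Probe sets of a gene often pointed in different directions. Of the 23 receptors with several probe sets, all were higher in HF for 5, all lower for 5 and mixed for 13. Between HF and HF+P, the counts were 4, 6 and 13. By contrast, the order of the 6 HF mice was largely kept when the same arrays were computed a second time. The median Pearson correlation over the 6 HF mice between the 2 computations was 0.974 for the 99 member probe sets and 0.952 for all probe sets, given as a description of shared arrays. It was above 0.9 in 86 of the 99 and below 0 in 1, a dim probe set of Ppard. The SD of Esr1 over these mice was 61.9 millionths in the first computation and 132 in the other, so sizes in millionths do not carry over between comparisons.

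Genes on which the receptors act were counted next. Lists of partners, known targets and cell markers held 346 entries in 26 lists, of which 304 were measured, 2 to 26 per list, with 33 genes in more than 1 list. Each gene was read from its reference probe set, and 179 of 18193 genes were called in HF against LF, a background of 0.984%, with 69 higher and 110 lower. Once propagules were added, 1 gene of 18193 was called (0.00550%), and 0 in every list.

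Partners of the receptors gave no call. Of 19 coactivators 0 passed, with a median of 0.00 in HF against LF, beside 0.01 over all 18193 genes. The smallest p belonged to Asxl2, an ASXL chromatin factor, at 2.30 (0.831 to 3.72; adjusted p = 0.258), turning to -3.29 after quantile normalisation. Ppargc1a, the fasting coactivator PGC-1 alpha, stood at -0.80 with its 5 probe sets lower. Of 12 corepressors 0 passed (median -0.44), with Hdac1 at -1.82 (-3.10 to -0.485; adjusted p = 0.164). For HF+P against HF, Tbl1x, a subunit of the NCoR complex, stood at 1.90 (0.543 to 3.20; adjusted p = 0.522). Of 9 further nuclear receptors 0 passed in either comparison (medians 0.26 and -0.44, turning to -0.21 and 0.024 after quantile normalisation and -2.63 and 0.38 after column-median centring), with Nr1i3, the constitutive androstane receptor, at 1.32 (0.105 to 2.49; adjusted p = 0.302) and -1.36 (-2.54 to -0.139; adjusted p = 0.659). Of 8 receptor chaperones 0 passed, with medians of -0.11 and 0.29.

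Targets of Ppara held the most calls. In HF against LF 3 of 20 fell and 0 rose, with a median of -0.67. Cidec, a lipid droplet protein, lay at -6727, -1089 and 11535 in LF and at -31397, -26722 and -16229 in HF, with no overlap, and fell by 3.97 pooled SDs (adjusted p = 0.00803). Acot1, an acyl-CoA thioesterase with near-identical copies that make its assignment uncertain, fell by 3.42 (adjusted p = 0.0166), and Ehhadh, a peroxisomal oxidation enzyme, by 3.08 (adjusted p = 0.0272). Ehhadh was not called after quantile normalisation (-1.19; adjusted p = 0.126) or without LF mouse 1, 3, 5 or 8 or HF mouse 2, 4 or 8 (adjusted p up to 0.0771). With propagules, the median of the list was 0.24, and the smallest p belonged to Cyp4a14, a fatty acid hydroxylase, at 1.68 (0.378 to 2.92; adjusted p = 0.560).

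Among targets of the bile acid and sterol receptors, 1 of 17 FXR targets fell and 0 rose. Apoc2, the cofactor of lipoprotein lipase, lay at -135, 2.03 and 183 in LF and at -530, -428 and -321 in HF, without overlap, and fell by 4.02 (adjusted p = 0.00763). The medians of the FXR list were 0.04 and -0.13, which column-median centring turned to -2.64 and 0.41 and quantile normalisation, for the first, to -0.29. Of 15 LXR targets 0 passed, with medians of -0.47 and -0.17, the latter turning to 0.086 after quantile normalisation, and Abcg5, a sterol exporter, stood at -2.34 (-3.76 to -0.857; adjusted p = 0.0717). Of 11 targets of LRH-1 0 passed, with medians of -0.52 and -0.10, the latter turning to 0.46 after column-median centring. Of 26 genes that supply or clear ligands 0 passed, with medians of 0.25 and -0.28, which turned to -0.43 and 0.40 after quantile normalisation and to -2.51 and 0.42 after column-median centring.

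Targets of Hnf4a and of the glucocorticoid receptor shared a call. Of 19 Hnf4a targets 2 fell and 0 rose in HF against LF. Apoa4, an intestinal and hepatic apolipoprotein, fell by 3.23 (adjusted p = 0.0222), and G6pc, the last enzyme of gluconeogenesis, fell by 3.10 (adjusted p = 0.0261), from -1473, -107 and 1457 in LF to -4551, -3808 and -1984 in HF. Apoa4 was not called after quantile normalisation (-0.75; adjusted p = 0.306) or without LF mouse 5 or 8 or HF mouse 2, 3 or 4 (adjusted p up to 0.0637), nor G6pc without LF mouse 1, 3, 5 or 8 or HF mouse 2, 3, 4 or 8 (up to 0.0719). G6pc is also on the glucocorticoid list, where 1 of 18 fell and 17 of 18 had a lower mean in HF, against 8977 of 18193 genes. The median of that list was -0.79 in HF against LF and 0.52 in HF+P against HF, where 15 of 18 had a higher mean in HF+P. These medians kept their sign under quantile normalisation (-0.68 and 0.53) and column-median centring (-1.01 and 0.55). Over all probe sets the medians were -0.84 and 0.09 after quantile normalisation and -2.72 and 0.52 after column-median centring. The kept signs are thus also those of the background.

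Of 13 targets of the estrogen-related receptors 0 passed, with 10 of 13 lower in HF (median -0.80) and 10 of 13 higher in HF+P (median 0.62). Pdk4, a kinase that inhibits pyruvate dehydrogenase and stands also on the Ppara list, was at -2.38 (-3.82 to -0.885; adjusted p = 0.0688) and 1.30 (0.0857 to 2.46; adjusted p = 0.673). Of 11 thyroid hormone targets 0 passed (medians -0.08 and 0.04). Dio1, the liver deiodinase whose gene thyroid hormone induces, was at 2.30 (0.827 to 3.71; adjusted p = 0.0753) in HF against LF. Of 11 retinoid targets 0 passed (medians -0.17 and 0.28), with Fgf21, a fasting hormone, at -2.18 (-3.55 to -0.741; adjusted p = 0.0898) in HF against LF.

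Among targets assigned to the steroid and vitamin D receptors, 1 of 10 estrogen receptor targets rose in HF against LF. Igf1, the growth factor secreted by hepatocytes, lay at -26.9, 6.38 and 23.1 in LF and at 66.0, 70.2 and 102 in HF, without overlap, and rose by 3.82 (1.84 to 5.75; adjusted p = 0.0100), although column-median centring left 0.45 (adjusted p = 0.406). All 4 of its probe sets were higher in HF. Between HF and HF+P, Igf1 was at -2.24 (-3.63 to -0.786; adjusted p = 0.459), from HF mice at -4.51, -1.98 and 6.98 to HF+P mice at -25.9, -14.4 and -8.01, without overlap. The medians of that list were 0.75 and -0.24. Of 8 mineralocorticoid and vitamin D targets 1 fell: Cyp3a11, a drug and bile acid hydroxylase that the pregnane X receptor also induces, fell by 9.24 (adjusted p = 2.39e-05) from -56.2, -2.30 and 53.6 in LF to -833, -730 and -589 in HF. Once propagules were added, it stood at 0.62 (-0.469 to 1.69). The medians of that list were -0.63 and 0.42. With the mouse number as a block, 5 of the 8 genes called on the lists were no longer called in HF against LF: Cidec (adjusted p = 0.0648), Apoc2 (0.0690), Igf1 (0.0578), Apoa4 (0.0708) and Ehhadh (0.0614). The same block left Acot1 (0.0324), G6pc (0.00529) and Cyp3a11 (0.0139) called. Quantile normalisation could not be fitted for Igf1 and Cyp3a11 in HF against LF, since their probe sets kept the same rank on every array. Whether these calls hold under that scaling could thus not be tested.

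**Figure D5:**
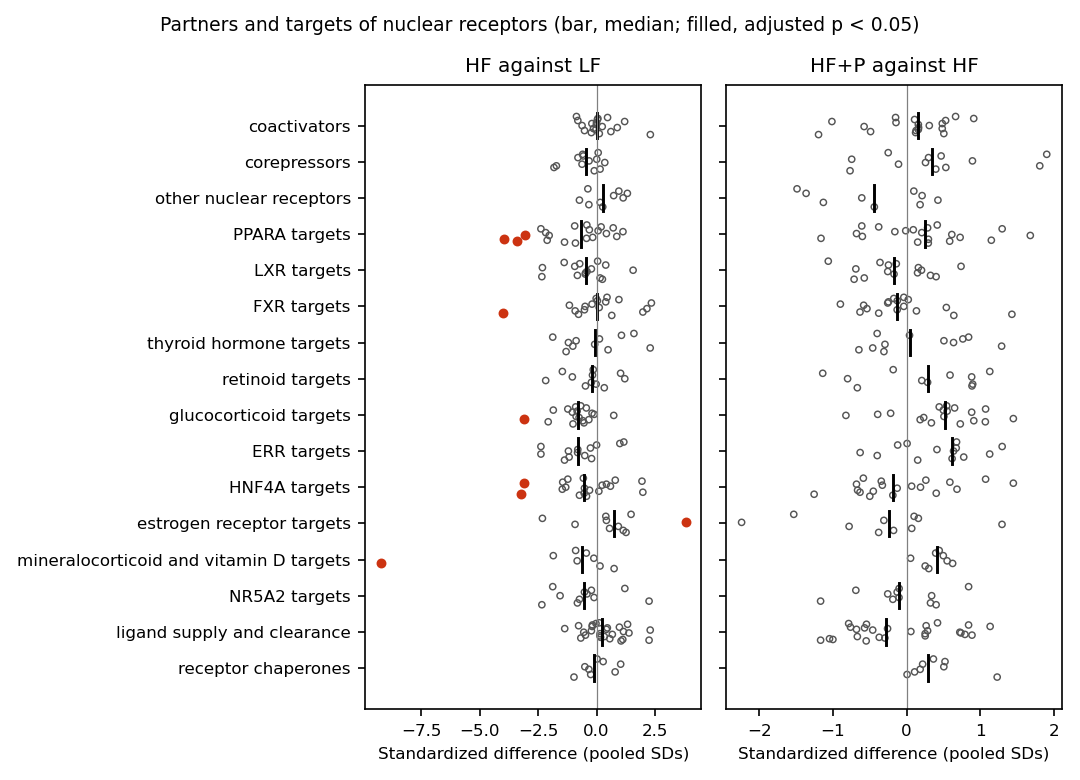
Standardized difference, in pooled SDs on the x axis, of each gene on 16 lists of receptor partners and targets in HF against LF (left) and HF+P against HF (right); the x scales differ, bars are medians and filled points passed adjusted p under 0.05. Filled points appear on the left only: 3 PPARA targets, 1 FXR target, 2 HNF4A targets, 1 of them also a glucocorticoid target, Igf1 to the right at 3.82 and Cyp3a11 to the left at -9.24.

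Markers of some other liver cells mostly shared a sign, for most of these lists only under some scalings, and none was called in either comparison. Over all 18193 genes, 9216 were higher in HF than in LF and 8831 lower in HF+P than in HF. Of 14 Kupffer cell and macrophage markers 12 were higher in HF than in LF (median 0.65) and 13 had lower means with propagules (median -0.64); their summed level ran from 126.308 to 126.443 in LF, 126.311 to 126.409 in HF. These medians kept their sign under quantile normalisation (0.43 and -0.73) and column-median centring (0.54 and -0.64). All 11 lymphocyte markers (median 0.75) and all 6 neutrophil markers (0.44) were higher in HF, and 9 of 11 and 5 of 6 were lower in HF+P, but the medians for HF against LF turned to -2.49 and -2.67 after column-median centring and to -1.06 and -0.70 after quantile normalisation, and column-median centring left the lymphocyte median for HF+P at 0.067. Of 12 stellate markers 10 were higher in HF (0.67), which centring turned to -0.06 and quantile normalisation to -0.17. HF mouse 3 had the highest score of its group for the Kupffer, lymphocyte, neutrophil, fat cell and pancreatic acinar lists. Endothelial (-0.24), bile duct (-0.35), fat cell (-0.07), pancreatic acinar (0.47) and red blood cell markers (0.76) had the medians given for HF against LF, and -0.13, 0.20, 0.01, -0.54 and -1.001 in HF+P against HF. In HF against LF the acinar median turned to -0.85 after quantile normalisation and -2.73 after column-median centring, and the red blood cell median to -0.68 after the latter. Quantile normalisation turned the endothelial, acinar and red blood cell medians of HF+P against HF to 0.23, 0.26 and 0.26, and column-median centring the endothelial and acinar ones to 0.34 and 0.47. No defining marker was at 0, since the array values start at 5.36. The part of these cells in the receptor values was not tested.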

How the data were processed

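Total RNA from liver pieces was labelled with the Affymetrix 3' in vitro transcription kit and hybridised, per the labels' protocols. The deposited table holds the authors' processed values for 45101 probe sets in 24 columns, read as log2; R 2.7.2 was used, per the submitters' processing notes, while those notes and labels, the sources used here, state no scale, centring or log base. A value set of 12 columns (LF with HF, or HF with HF+P) was never mixed with the other, 0 columns were left unmapped, and the 64 control probe sets were left out.

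Each comparison was fitted with limma 3.58.1 (lmFit and eBayes, R 4.3.3) on 6 mice per group, no covariate, two-sided, Benjamini-Hochberg adjustment over 45037 probe sets, threshold 0.05; prior degrees of freedom were 0.72 and 0.76. The fit was tested on simulated data. Exact two-sided permutation tests used all 924 assignments. Precision is limited by 6 arrays per group. The platform annotation gave the gene names (34945 probe sets with 1 symbol). The members, lists and rules were chosen with earlier results of these data known. Full values were given for members called or among the 12 largest reference differences in each comparison, and for up to 3 called genes per list or else the smallest p. Further members with an unadjusted p under 0.05, Ppara, Nr0b2, Ppargc1a and Nr1i3 in HF+P against HF were added after their values were seen. Promoters were taken from RefSeq (GRCm38.p6). Other settings tried were quantile normalisation, column-median and median-deviation centring, brighter probe sets, other gene summaries, trend and robust settings, array weights, a looser threshold, a block and leaving out each mouse.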

Additional observations from a re-analysis of the deposited data

Results flagged for a closer look

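Within groups of 6 mice, 4 of 140 groups of reference probe sets (2.86%) had a lowest or highest mouse separated from the rest by more than 0.625 of the group's whole range, Dixon's limit, and chance alone gives about 5%. Rora had HF mouse 3 lowest, with a gap of 0.685 of the range. Ppara had LF mouse 1 lowest, with a gap of 0.684, and HF+P mouse 8 lowest, with a gap of 0.707. Ppard had HF mouse 1 lowest, with a gap of 0.660, in the columns computed with HF+P. The 4 values belong to different mice.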

How the results depend on the processing

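In HF against LF, 302 probe sets were called, against 7305 after quantile normalisation, 42369 after column-median centring (322 higher and 42047 lower), 568 among brighter probe sets, 861 at a threshold of 0.1 and 131 to 325 with any mouse left out; the count fell below 302 by over 1.5 times without LF mouse 1, 3, 5 or 8 (174, 145, 131 and 174) or HF mouse 2, 3 or 4 (151, 174 and 173). Centring on the median deviation called 312 probe sets and 0 of the 99 members. Member probe sets called in the main fit were 0 of 99. After quantile normalisation they were 11 of 96, beside 7305 of 40595 in all. After column-median centring they were 85 of 99, beside 42369 of 45037. Both are smaller shares than over all probe sets. Among brighter probe sets 1 of 64 was called, beside 568 of 22518, and at a threshold of 0.1, 2 of 99, beside 861 of 45037. The mean of probe sets per gene called 1 of 35 genes, beside 283 of 18193. The replicate block called 1 of 99, beside 246 of 45037, and leaving out any mouse 0 to 0. In HF+P against HF, 1 probe set was called, against 2 after column-median centring and 0 to 2 with any mouse left out (0 without HF+P mouse 1, 2 or 4, 2 without HF mouse 2), and 0 members in all settings run. Among the 12 receptors with the largest reference differences in each comparison, directions that turned in HF against LF were Nr2c1 (quantile -0.45, column median -2.77), Nr1h4 (column median -2.30), Pparg (quantile -0.0935), Rora (mean of probe sets 0.11) and Nr3c1 (column median -0.63); in HF+P against HF they were, by quantile normalisation, Esrrg -0.37, Ppard -1.07, Nr1h4 0.29, Thrb 0.0556 and Pgr 0.53, by column median Pgr 0.10, and by mean of probe sets Nr4a3 -0.82 and Pgr 0.43. The cause was not tested.

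Signs of member probe sets in HF against LF turned in 40 of 99 under quantile normalisation and 42 under column-median centring. In HF+P against HF they turned in 40 and 32. Median-deviation centring turned 1 in HF against LF and 0 in HF+P against HF. The labels state no pairing by mouse number, and the values do not settle it. Correlations of same-numbered mice ran from -0.130 to 0.0976 and from 0.0338 to 0.209. The same-numbered treated mouse correlated highest for LF mice 1, 2, 4 and 5, but not 3 and 8. In HF+P against HF it did so for HF mice 3 and 8, but not 1, 2 and 4. With the replicate block 246 and 1 probe sets were called. Quantile normalisation could not be fitted for 3 and 7 member probe sets of constant rank, and the test of brighter probe sets leaves out the dimmer named members. The signal over background of single probes is unknown.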
